A study of Mus musculus with 8 samples.

Results

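The DEAD and DEAH box RNA helicases were described across 4 groups of RNA-seq libraries made from the mouse mammary carcinoma line EO771. Members were all genes of the count table whose symbol begins with Ddx or Dhx and a number, with pseudogenes and opposite-strand transcripts left out, which gave 53 of 49997 genes. Of these, 24 had a mean of at least 10 counts over the 8 libraries and were among the 6901 genes tested. A further 25 had counts but a mean under 10, and 4 (Ddx25, Ddx43, Ddx4 and Ddx3y) were at 0 in every library. Each group had 2 libraries. Vehicle cells received 2% DMSO in saline, and 12-HETE cells received 100 nM of this lipid product of the enzyme ALOX12, with treatment for 48 h. Vector cells were transduced with an empty vector, and ADAR1 p150 cells with a vector that overexpresses the interferon-inducible isoform of the RNA-editing enzyme ADAR1. All groups were cultures of the same line, so the vehicle cells differ from the vector cells in both transduction and vehicle, and the promoter of the vector and the number of clones are not given in the sources used here. The labels do not say whether replicates came from separate cultures. The study describes its editing results for the same comparisons as independent experiments but does not tie replicate numbers to them, so p-values measure the spread between these libraries, which may be technical.

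DEAD and DEAH box proteins are named after the letters of a conserved amino acid motif, and use ATP to unwind RNA duplexes or to strip proteins from RNA. Different members act in splicing, in ribosome assembly, in export, translation and decay of mRNA, and in mitochondria, so most cells express many of them at once. A few are sensors: Ddx58 encodes RIG-I, which binds double-stranded RNA with uncapped ends and signals through MAVS to induce interferon, Dhx58 encodes LGP2, which modulates RIG-I-like signalling, and both are themselves induced by interferon. ADAR1 converts adenosine to inosine in double-stranded RNA, and this editing is known to limit recognition of a cell's own RNA by RNA sensors. The study names MDA5 (gene Ifih1) and ZBP1 as these sensors, and neither is among the members.

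The libraries held between 1101767 and 1537037 counts, with higher totals in the treated groups than in their controls. AY036118 alone took between 44.4% and 50.3% of each library and was chosen after its values were seen. At these depths 3 counts equal 1.95 to 2.72 CPM (counts relative to the total of each library), and this floor covers counting error only. The gene Adar had 181 and 140 counts with ADAR1 p150 and between 2 and 8 in every other library. Gene counts do not separate the p150 isoform from the others. Krt8, Krt18, Krt19 and Krt7, keratins of mammary epithelium, had between 25 and 150 counts in every library, but Epcam had only 1 to 4 and Cdh1 had 0. The summed counts of 5 immune markers ranged from 17 to 22 in vehicle, 11 to 13 with 12-HETE, 22 to 24 in vector and 17 to 28 with ADAR1 p150. These were almost all Cd68, and Cd3e and Adgre1 were at 0. The summed counts of 4 fibroblast markers ranged from 31 to 33, 38 to 43, 10 to 32 and 31 to 59 in the same order of groups, mostly from Dcn, with Col1a2 at 0. The summed counts of 3 endothelial markers ranged from 8 to 10, 1 to 3, 6 to 9 and 2 to 11. The part of other cells in the results below was not tested, and in bulk RNA fewer cells of a type and less RNA per cell cannot be told apart.

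The helicases together took between 0.0947% and 0.1217% of each library, with 43 to 48 members detected. Ddx39a and Ddx49 alone supplied between 32.7% and 48.9% of the helicase counts. Per kilobase of annotated exon, Ddx49 (a helicase of ribosome biogenesis) had the highest mean level over the 8 libraries, at 71.5 CPM per kilobase. Ddx39a (mRNA export) followed at 47.5, and Dhx32, a DEAH box protein with a little-studied role, at 22.2. Of the other abundant members, Ddx17, a splicing and transcription cofactor, was at 7.83 CPM per kilobase and Ddx6, which represses translation in processing bodies, at 7.13. Ddx5, the close relative of Ddx17, reached 6.64, Ddx3x 5.67, Ddx21 (ribosomal RNA synthesis) 5.03, Ddx23 (splicing) 4.73, Ddx42 (splicing) 4.67 and Ddx27 (ribosome biogenesis) 4.27. At the other end, the 25 members with counts that were too low to test had means between 1.125 counts (Ddx60) and 9.5 (Ddx31), with Ddx58 at 9.375. Reads of close paralogues, such as Ddx39a and Ddx39b or Ddx19a and Ddx19b, could be split by the counting.

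**Figure D1:**
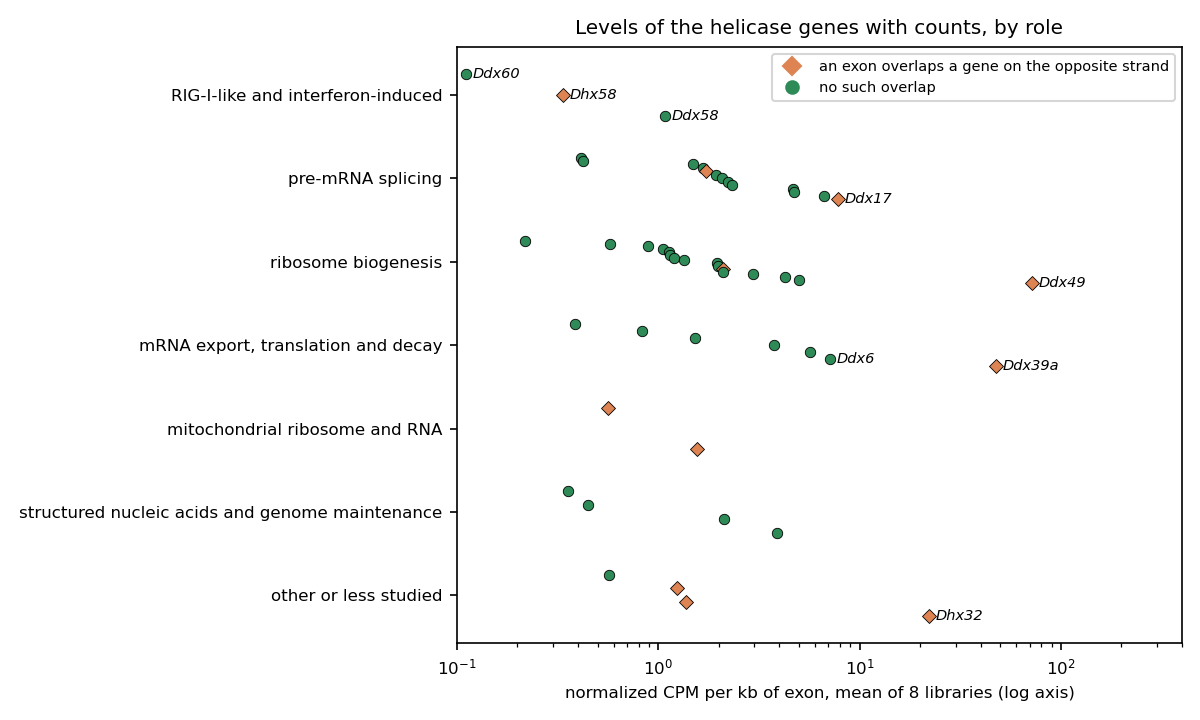
Mean level of each helicase gene with counts, in normalized CPM per kilobase of exon over the 8 libraries (log axis), in rows by role; diamonds mark genes with an exon that overlaps a gene on the opposite strand. Ddx49, Ddx39a and Dhx32 stand apart on the right, at 71.5, 47.5 and 22.2, and all 3 are diamonds.

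The 3 helicases with the highest levels shared a feature that their selection did not use, an exon that overlaps a gene on the other strand. Ddx49 (chromosome 8, 70292866 to 70302489, minus strand) overlaps Homer3 by 874 exonic bases, Ddx39a (chromosome 8, 83715177 to 83726892, plus strand) overlaps Adgre5 by 895, and Dhx32 (chromosome 7, 133720942 to 133782726, minus strand) overlaps Bccip by 204. Ddx17 overlaps Kdelr3 by only 4 bases. In all, 12 of the 53 helicases have such an overlap in the annotation, among them 6 of the 24 tested. The share of all genes with such an overlap was not computed, so whether it is frequent among the helicases is not known. The sources used here do not say if read strand entered the counting, and without strand reads from a gene and its antisense partner cannot be told apart. Ddx41, a splicing helicase too low to test, had 4 to 9 counts where its antisense partner Gm46416 had 253 to 306. Bccip had 22 to 42 counts, fewer than Dhx32 in every library, while Homer3 had 264 to 474 and Adgre5 121 to 259.

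With 12-HETE, 5 of the 24 helicases rose against vehicle and 1 fell at an adjusted p under 0.05 in edgeR's quasi-likelihood test. Dhx32, Ddx3x, Dhx9, Ddx42 and Ddx1 were higher and Ddx19b was lower. These are 20.8% and 4.17% of the helicases, where 15.1% of all genes tested rose and 14.2% fell. With a 2-fold change also required, 4 rose and 1 fell, against 6.12% and 8.25% of all genes. The median log2 fold change of the helicases was 0.21, against 0.0044 over all genes tested, and 18 of the 24 had a positive value. This median rested on the vehicle libraries, at 0.05 without replicate 4 and 0.48 without replicate 5, and was 0.03 with no minimum count. Between the controls, vector against vehicle, the median of the same 24 helicases was larger in size, at -0.28.

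Dhx32 had 79 and 95 counts in vehicle, 222 and 203 with 12-HETE, 74 and 79 in vector, and 92 and 105 with ADAR1 p150. Both 12-HETE libraries were above the other 6, which were close together. Its level went from 73.2 ± 7.91 to 157 ± 2.05 normalized CPM with 12-HETE (SD, n = 2), a log2 fold change of 1.10 ± 0.15 (SE) with an adjusted p of 5.7e-07. Its overlapping partner Bccip had a log2 fold change of -0.09 with an adjusted p of 0.849.

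Ddx3x, an X-linked helicase of translation initiation (chromosome X, 13280970 to 13294052, plus strand), had 27 and 19 counts in vehicle and 77 and 72 with 12-HETE. The vector libraries had 14 and 25 and the ADAR1 p150 libraries 49 and 28. The 12-HETE libraries were again the highest, and the vector and ADAR1 p150 libraries lay apart in counts but overlapped after normalization. The mean rose from 19.4 ± 5.20 to 55.0 ± 0.151 normalized CPM (SD, n = 2), by 1.50 ± 0.27 (SE) on the log2 scale with an adjusted p of 4.4e-05. The 93 tested genes of the X chromosome had a median log2 fold change of 0.47 in the same comparison, so Ddx3x was 1.03 above its chromosome.

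Dhx9, which unwinds structured RNA including duplexes of inverted repeats (chromosome 1, 153455758 to 153487660, minus strand), had 16 and 25 counts in vehicle and 59 and 43 with 12-HETE. The vector libraries had 9 and 14 counts, and the ADAR1 p150 libraries 32 and 14. After normalization the 12-HETE libraries exceeded both vehicle libraries, with a log2 fold change of 1.12 ± 0.32 (SE) and an adjusted p of 0.00679. Ddx42, a helicase of early spliceosome assembly (chromosome 11, 106216926 to 106249139, plus strand), had 15 and 22 counts in vehicle, 45 and 42 with 12-HETE, 20 and 21 in vector and 20 and 16 with ADAR1 p150. The 12-HETE libraries stood apart from the other 6, at 32.1 ± 0.0462 normalized CPM against 15.5 ± 3.83 in vehicle (SD, n = 2). The log2 fold change was 1.04 ± 0.30 (SE) with an adjusted p of 0.00816.

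Ddx1, a subunit of the tRNA ligase complex (chromosome 12, 13216973 to 13249213, minus strand), had 18 and 22 counts in vehicle, 44 and 36 with 12-HETE, 13 and 19 in vector and 28 and 22 with ADAR1 p150. It rose by 0.81 ± 0.30 (SE) on the log2 scale with 12-HETE, with an adjusted p of 0.0422, while the 214 tested genes of chromosome 12 had a median of -0.42. Ddx19b, which releases mRNA at the cytoplasmic face of the nuclear pore (chromosome 8, 111003188 to 111031751, minus strand), had 17 and 16 counts in vehicle, 9 and 8 with 12-HETE, 16 and 16 in vector and 12 and 6 with ADAR1 p150. Both treated groups lay below both control groups after normalization. With 12-HETE it fell by 1.14 ± 0.43 (SE) on the log2 scale, with an adjusted p of 0.0453. Its adjacent paralogue Ddx19a, with which reads could be split, had a log2 fold change of -0.13 and an adjusted p of 0.862.

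**Figure D2:**
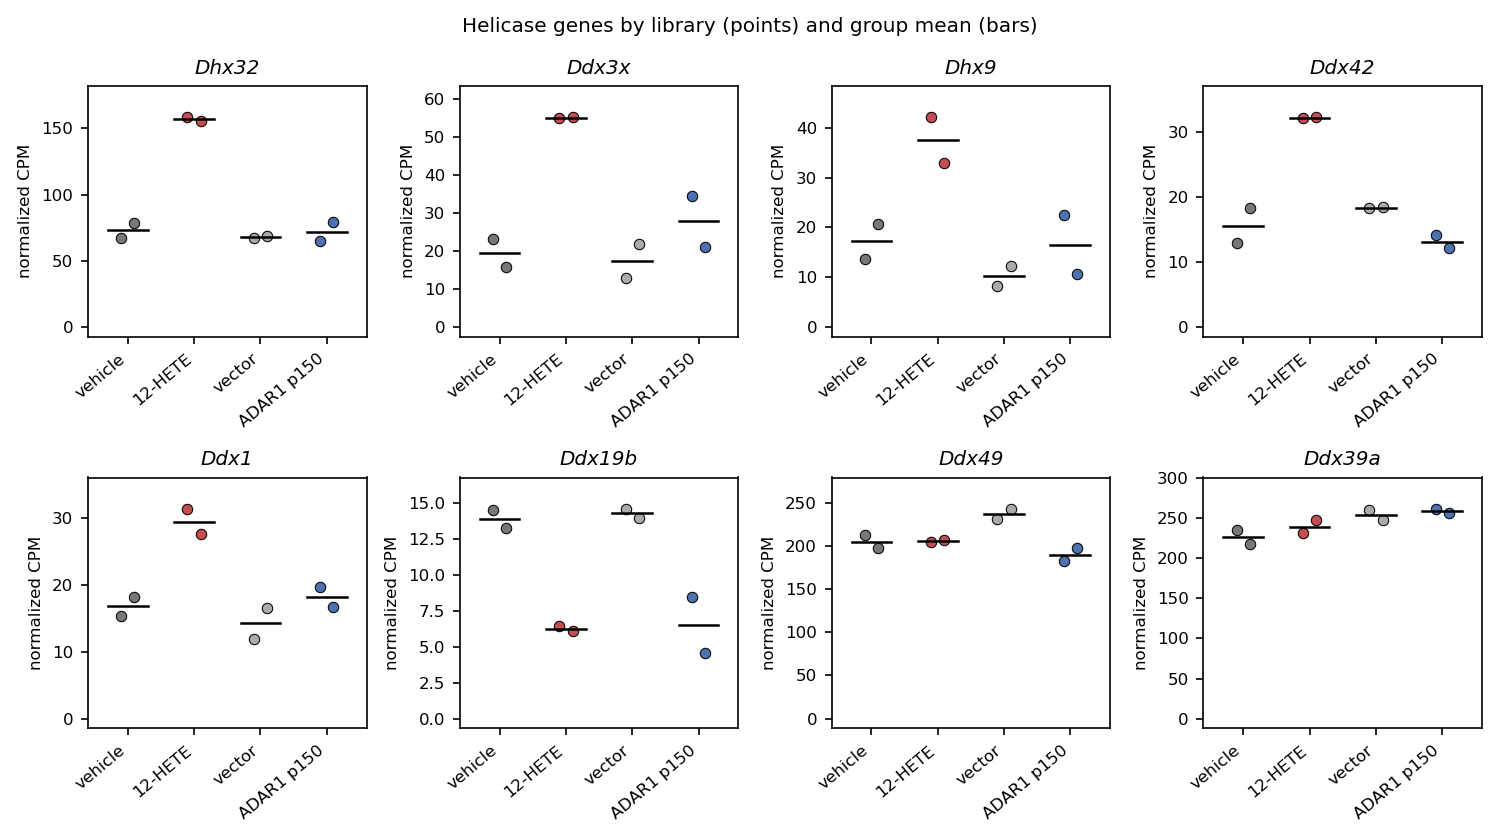
Normalized CPM of 8 helicase genes in each library (points) and the mean of each group (bars), with 2 libraries per group. Both 12-HETE libraries lie above both vehicle libraries for Dhx32, Ddx3x, Dhx9, Ddx42 and Ddx1 and below them for Ddx19b, while Ddx39a is nearly level.

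By role, the helicases that rose came from several groups. Over all genes tested, 15.1% rose, 14.2% fell and 3478 of 6901 had a positive log2 fold change. Of 9 tested splicing helicases, 8 had a positive log2 fold change but only Ddx42 passed the test. Ddx46, which acts at branch-site recognition, had 0.74 with an adjusted p of 0.174, Dhx15 (release of the spliced lariat) 0.62 with 0.147, Ddx5 0.42 with 0.159, Ddx23 0.24 with 0.524, and Ddx17 0.05 with 0.889. Of 6 tested helicases of ribosome biogenesis, none passed in edgeR or DESeq2, and at an unadjusted p under 0.05 there were 2 in edgeR and 0 in DESeq2, against 39.0% and 24.5% of all genes tested. Here Ddx21 had 0.58 with an adjusted p of 0.125 and Ddx27 0.48 with 0.235, whereas Ddx24 had -0.96 with 0.0887. The role of structured nucleic acids has 4 helicases, of which 2 were tested. Both of these, Dhx9 and Ddx1, rose in edgeR, and 0 passed in DESeq2. Of 5 tested in mRNA export, translation and decay, Ddx3x rose and Ddx19b fell, and Ddx39a (0.08, adjusted p of 0.651) and Ddx6 (-0.09, adjusted p of 0.806) were among the others. Over all 24 tested helicases, log2 fold changes with 12-HETE ran from -1.14 to 1.50.

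The calls for 4 of these 6 genes depended on the tool or on 1 library. With DESeq2 only Dhx32 and Ddx3x passed, and the adjusted p was 0.122 for Dhx9, 0.138 for Ddx42, 0.301 for Ddx1 and 0.270 for Ddx19b. The same 2 genes were left without vehicle replicate 4, and with the replicate number as a block Ddx1 (adjusted p of 0.0724) and Ddx19b (0.0690) no longer passed.

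With ADAR1 p150, no helicase rose and 1 fell, against 14.5% of all genes tested that rose and 11.1% that fell. No helicase passed with a 2-fold change, where 8.11% of all genes rose and 4.69% fell. At an unadjusted p under 0.05, 4 of the 24 passed in edgeR and 1 in DESeq2, or 16.7% and 4.17%, against 36.6% and 22.2% of all genes tested. DESeq2 called 0 helicases at an adjusted p. The median log2 fold change was 0.08, close to the 0.07 of all genes tested. The gene that fell was Ddx49, with 253 and 278 counts in vector and 260 and 261 with ADAR1 p150, which are deeper libraries. Its counts thus changed little, and after normalization both ADAR1 p150 libraries were below both vector libraries, at 190 ± 10.2 against 237 ± 8.45 CPM (SD, n = 2). The log2 fold change was -0.32 ± 0.12 (SE) with an adjusted p of 0.0403. The call was lost with DESeq2 (adjusted p of 0.116), with the replicate block (0.0768) and without each of the 4 libraries of this comparison in turn. Homer3, on the other strand of Ddx49, had -0.18 with an adjusted p of 0.272.

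By role, 5 of the 6 tested helicases of ribosome biogenesis had a negative log2 fold change with ADAR1 p150, between -0.87 and 0.12 with a median of -0.45, and only Ddx49 passed. Over all genes tested, 3765 of 6901 had a positive value. Between the controls, vector against vehicle, these 6 helicases already had a median of -0.41, with 1 positive. Of the 9 tested splicing helicases, 6 had a positive value, with a median of 0.08, and 0 passed in edgeR or DESeq2, also at an unadjusted p under 0.05. The 6 helicases that changed with 12-HETE had these log2 fold changes with ADAR1 p150: 0.07 for Dhx32 (adjusted p of 0.809), 0.68 for Ddx3x (0.107), 0.70 for Dhx9 (0.218), -0.48 for Ddx42 (0.334), 0.35 for Ddx1 (0.503) and -1.11 for Ddx19b (0.0535). For Ddx3x this was near the median of 0.50 over the X chromosome. Ddx19b passed when only the 4 libraries of the comparison were fitted (adjusted p of 0.0469) and with RLE factors (0.0403). It did not pass with DESeq2 (0.276), with no minimum count (0.0837) or with the replicate block (0.0766). Its log2 fold change was -1.63 without ADAR1 p150 replicate 1 and -0.75 without ADAR1 p150 replicate 2. Of the most abundant members, Ddx39a had 285 and 283 counts in vector and 372 and 339 in the overexpressing libraries, and its log2 fold change was 0.03 with an adjusted p of 0.880, or -0.03 with RLE factors. Ddx17 had 0.36 (0.242), Ddx6 0.27 (0.329), Ddx23 0.12 (0.828), Ddx5 -0.10 (0.817), Ddx27 -0.12 (0.850) and Ddx21 -0.58 (0.279).

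**Figure D3:**
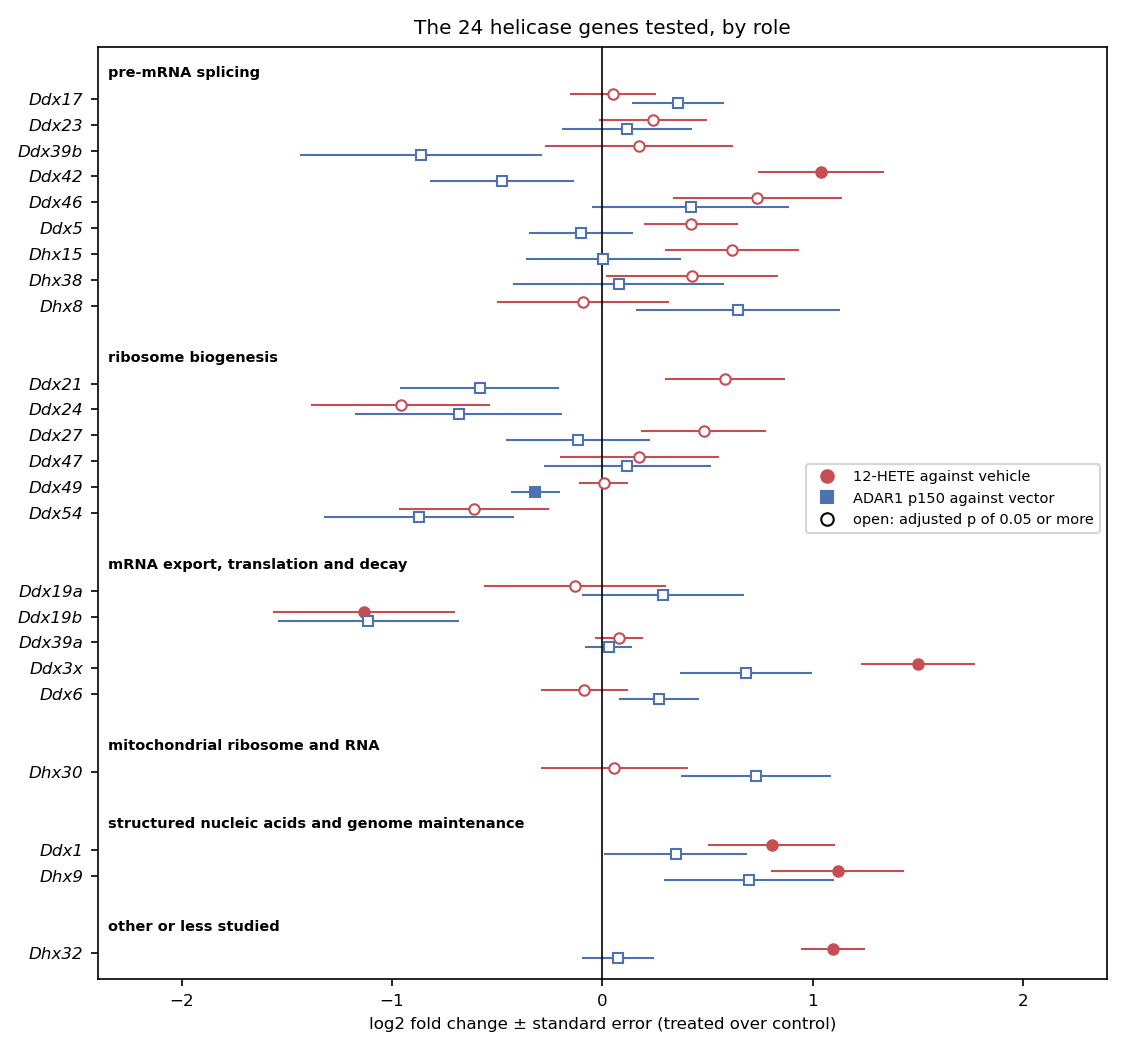
Log2 fold change with its standard error for the 24 helicases tested, by role, with 12-HETE against vehicle (circles) and ADAR1 p150 against vector (squares); filled symbols passed an adjusted p under 0.05. The filled circles are Ddx42, Ddx19b, Ddx3x, Ddx1, Dhx9 and Dhx32, and the only filled square is Ddx49.

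Whether a helicase responded differently to the treatments was tested directly, as the ADAR1 p150 effect minus the 12-HETE effect. Dhx32 and Ddx42 passed, 2 of the 24, against 15.0% of all genes tested. The difference was -1.02 ± 0.23 (SE) for Dhx32, with an adjusted p of 0.00182, and -1.52 ± 0.46 (SE) for Ddx42, with an adjusted p of 0.0200. For both, the rise with 12-HETE had no counterpart that passed with ADAR1 p150. The difference did not pass for Ddx3x (-0.82, adjusted p of 0.212), Dhx9 (-0.42, 0.668), Ddx1 (-0.46, 0.573), Ddx49 (-0.32, 0.196) or Ddx19b (0.02, 0.986). With DESeq2 the difference of Ddx42 had an adjusted p of 0.127. Between the control groups, no helicase differed between vector and vehicle in edgeR or DESeq2, where 0.116% of all genes tested did in edgeR. At an unadjusted p under 0.05 there was 1 in edgeR and 0 in DESeq2, against 11.5% and 3.36% of all genes tested. Most helicases were still lower in vector than in vehicle. Only 6 of the 24 were positive, and their median was -0.28 on the log2 scale. Over all genes tested it was -0.0083, and 3379 of 6901 were positive. This shift between the controls was larger in size than the helicase median of 0.21 with 12-HETE, and its cause was not tested.

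The RNA sensors and the interferon-induced Ddx60 were too low to be tested with the other genes. Ddx58 (chromosome 4, 40203773 to 40239828, minus strand) had 7 and 18 counts in vehicle, 8 and 7 with 12-HETE, 8 and 13 in vector and 9 and 5 with ADAR1 p150. In raw counts the lower library of each control pair lay among the treated libraries. In normalized CPM, vehicle had 5.99 and 14.9 against 5.71 and 5.36 with 12-HETE, and vector 7.30 and 11.4 against 6.33 and 3.78 with ADAR1 p150, so that both controls were above both treated libraries, by a small margin for the lower of each pair. Dhx58 (chromosome 11, 100694884 to 100704271, minus strand) had 4 and 1 counts in vehicle, 4 and 1 in vector and 0 in all 4 treated libraries. With the treated group set to a floor of 3 counts, control was 1.90-fold higher than 12-HETE and 2.04-fold higher than ADAR1 p150. The control counts were taken as observed, so their own counting error is left out and these folds are not lower limits. Ddx60 (chromosome 8, 61928087 to 62038244, plus strand) had 4 and 3 counts in vehicle, 1 and 1 in vector and 0 in all 4 treated libraries. By the same reckoning, vehicle was 2.66-fold higher than 12-HETE, and no fold is given for ADAR1 p150 because vector was under the floor. In a fit with no minimum count, the adjusted p with 12-HETE and with ADAR1 p150 was 0.298 and 0.366 for Ddx58, 0.187 and 0.177 for Dhx58, and 0.0977 and 0.594 for Ddx60. None of these passed an adjusted p under 0.05. The unadjusted p in the same fit was 0.049971 with 12-HETE and 0.0608 with ADAR1 p150 for Ddx58. In the same order it was 0.0243 and 0.0194 for Dhx58, and 0.00988 and 0.147 for Ddx60. All these log2 fold changes were negative. The smallest difference detectable at this depth was not computed.

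**Figure D4:**
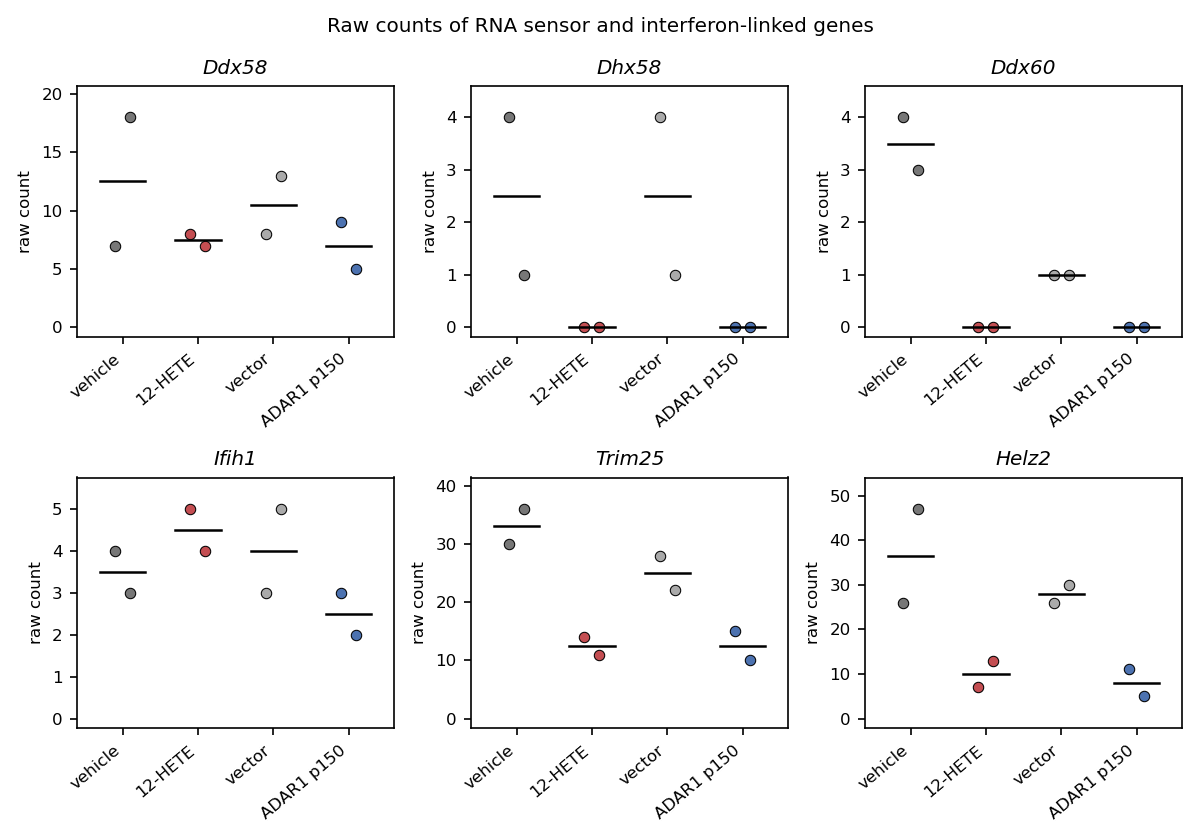
Raw counts per library of the sensors Ddx58, Dhx58 and Ifih1, the interferon-induced Ddx60 and Helz2, and the ubiquitin ligase Trim25, with points for libraries and bars for group means. Dhx58 and Ddx60 are at 0 in all 4 treated libraries, and Helz2 and Trim25 are lower in both treated groups than in their controls.

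Promoter sequences are shown for the interferon-induced helicases whose start regions hold the core of the interferon-stimulated response element, the sequence bound by interferon regulatory factors and the interferon-activated STAT complex. The core was searched on both strands as GAAANNGAAA or TTTCNNTTTC, in the window from 250 bases before to 50 after each RefSeq start in GRCm38.p6. It was found for 3 of the 47 helicases with an entry (Ddx58, Ddx60 and Ddx49), or 6.38%, and for 3.99% of all 27025 genes. Of the 5173 tested genes with an entry, 3.4% had it. Ddx49 was found by the search and does not belong to the interferon-induced helicases listed here. The E-box CACGTG, the other motif searched in this window, was found for 7 of the 47 (14.9%), for 8.09% of all genes and for 10.8% of the tested genes with an entry. Dhx58, Ddx23, Dhx38, Ddx39a, Ddx6 and Ddx11 had no entry. Below are 90 bases before to 30 after the start, read along the gene from 5′ to 3′, with the core in capitals.
Ddx58, chr4:40239796-40239915, minus strand: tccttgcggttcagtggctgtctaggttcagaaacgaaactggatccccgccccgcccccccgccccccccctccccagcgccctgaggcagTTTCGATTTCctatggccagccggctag
Ddx60, chr8:61927997-61928116, plus strand: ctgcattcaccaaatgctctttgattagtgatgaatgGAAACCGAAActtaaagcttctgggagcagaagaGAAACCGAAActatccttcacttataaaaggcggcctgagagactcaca
In Ddx60 the same 10 letters stand at 2 places, beginning 53 and 19 bases before the start, and in Ddx58 the core begins 2 bases after it. A match is a description of these letters and not evidence of binding.

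Of 16 genes of the RIG-I-like receptor pathway in the table, 7 were tested, and with 12-HETE 2 of them fell and 0 rose, where 14.2% of all genes tested fell and 15.1% rose. Trim25, a ubiquitin ligase that activates RIG-I, had 30 and 36 counts in vehicle, 14 and 11 with 12-HETE, 28 and 22 in vector and 15 and 10 with ADAR1 p150. Both treated groups were below both control groups. It fell by 1.58 ± 0.35 (SE) on the log2 scale with 12-HETE (adjusted p of 5.6e-04) and by 1.29 ± 0.36 with ADAR1 p150 (adjusted p of 0.00751). Irf7, the interferon regulatory factor that amplifies interferon induction, had 31 and 41 counts in vehicle, 11 and 5 with 12-HETE, 30 and 16 in vector and 15 and 24 with ADAR1 p150. It fell by 2.34 ± 0.41 (SE) with 12-HETE (adjusted p of 2.8e-05), while with ADAR1 p150, where the groups overlapped, the log2 fold change was -0.53 (adjusted p of 0.326). The effects on Irf7 differed by 1.81 ± 0.57 (SE), with an adjusted p of 0.0254, which was 0.141 with DESeq2 and did not pass without vehicle replicate 5 (0.0713), 12-HETE replicate 5 (0.154), vector replicate 2 (0.113) or ADAR1 p150 replicate 2 (0.172). With ADAR1 p150, Trim25 was the only one of the 7 to pass, and its adjusted p was 0.0752 with DESeq2, 0.106 without vector replicate 1 and 0.0685 without ADAR1 p150 replicate 2. Over all genes tested, 11.1% fell and 14.5% rose with ADAR1 p150. Ifih1, which encodes the sensor MDA5, was not tested, with 4 and 3 counts in vehicle, 5 and 4 with 12-HETE, 3 and 5 in vector and 3 and 2 with ADAR1 p150.

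Of 23 RNA helicases with other names, 16 were tested, and with 12-HETE 2 rose and 1 fell, with shares below the 15.1% and 14.2% of all genes tested. With ADAR1 p150, 1 of the 16 rose and 1 fell, where 14.5% of all genes tested rose and 11.1% fell. Helz2, an interferon-induced helicase, had 26 and 47 counts in vehicle, 7 and 13 with 12-HETE, 26 and 30 in vector and 11 and 5 with ADAR1 p150. It fell by 2.04 ± 0.39 (SE) on the log2 scale with 12-HETE (adjusted p of 9.1e-05) and by 2.08 ± 0.42 with ADAR1 p150 (adjusted p of 2.7e-04). Mtrex, the helicase of the nuclear RNA exosome, had 22 and 34 counts in vehicle, 64 and 81 with 12-HETE, 20 and 22 in vector and 42 and 48 with ADAR1 p150. It rose by 1.18 ± 0.25 (SE) with 12-HETE (adjusted p of 3.7e-04) and by 0.80 ± 0.29 with ADAR1 p150 (adjusted p of 0.0355). The latter call was lost with DESeq2 (0.266), without vector replicate 1 (0.146) or 2 (0.115) and without ADAR1 p150 replicate 2 (0.190). Plpp1 overlaps Mtrex by 452 exonic bases on the other strand, and had 50 and 88 counts in vehicle, 200 and 155 with 12-HETE, 76 and 119 in vector and 120 and 127 with ADAR1 p150. Eif4a2, which unwinds mRNA at the start of translation, had 55 and 46 counts in vehicle, 95 and 97 with 12-HETE, 39 and 55 in vector and 44 and 38 with ADAR1 p150. It rose by 0.74 ± 0.20 (SE) with 12-HETE (adjusted p of 0.00542, or 0.116 with DESeq2, 0.150 without vehicle replicate 5 and 0.0568 without 12-HETE replicate 5), and its effects differed by -1.22 ± 0.31 with an adjusted p of 0.00577. That difference had an adjusted p of 0.0547 with DESeq2 and 0.0768 without vector replicate 2.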

How the data were processed

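The values are raw counts per gene in 8 libraries, as deposited. By their methods, the authors aligned reads (STAR, GRCm38) and assigned fragments to genes (featureCounts). For the RNA editing analysis of these cells they took out duplicate reads (prinseq) before alignment, while their expression methods name no such step. Whether duplicates were taken out before the deposited counts were made is not stated, so counts may not be the original read numbers. How strand was treated is not given in the sources used here. The labels name a column-based RNA kit and a SMARTER library kit, whereas the methods name Trizol and a directional NEB kit. Genes with a mean count under 10 were removed, which left 6901 of 49997 genes. All 8 libraries were fitted together with edgeR 4.0.16 (R 4.3.3, limma 3.58.1), with TMM factors, a coefficient per group, the quasi-likelihood test and Benjamini-Hochberg adjustment over all genes tested. Standard errors were the size of the log2 fold change divided by the square root of F. Changes with an adjusted p under 0.05 are called, and those of at least 2-fold are also given. Levels are normalized CPM.

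Results were recomputed without any count filter, with at least 10 counts required per library, with RLE factors, with DESeq2 1.42.0, with only the 4 libraries of a comparison, with a replicate block, leaving out each library, and leaving out helicases with an opposite-strand overlap. Replicates of a group differed by more than counting noise, with a chi-square per gene between 1.39 and 1.71. Positions, exon lengths and strands are from GENCODE M21, which held 52 of the 53 helicases by name. The other, Ddx39a, was matched through a RefSeq synonym. Promoters and chromosome medians are from RefSeq GRCm38.p6. The members, roles and lists were chosen with earlier results of these data known. The text names helicases that passed in a treatment comparison or in the difference of effects, the sensors and Ddx60, the 10 with the highest mean CPM, those at 0, list genes that passed with either treatment, Ifih1, and overlapping genes. Ddx46, Dhx15, Ddx24, Ddx19a, Ddx31, Ddx41 and Plpp1 were named with values outside this rule, after their values were seen, and Ddx39b, Dhx38 and Ddx11 without values. The procedure was run on simulated counts with the same spread for every gene, which does not check the calls made in these data.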

Additional observations from a re-analysis of the deposited data

Results flagged for a closer look

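The effects of the treatments differed for 2 helicases, by the test of the difference itself in edgeR. For Ddx42 the ADAR1 p150 effect minus the 12-HETE effect was -1.52 on the log2 scale, and it passed in 9 of 14 alternative fits. It did not pass with DESeq2, without vehicle replicate 4, without either vector replicate, or without ADAR1 p150 replicate 2. For Dhx32 the difference was -1.02, and it passed in all 14 alternative fits, with adjusted p between 0.000698 and 0.0206. Each treatment had its own control group, so the treatments and any other difference between these pairs of groups cannot be told apart here.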

How the results depend on the processing

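The count of helicases that changed with 12-HETE was 6, with 2 in DESeq2 and between 2 and 6 when libraries were left out, the 2 being without vehicle replicate 4. With ADAR1 p150 the count was 1, with 0 in DESeq2, 0 with the replicate block, 0 at 2-fold, 0 among helicases with no opposite-strand overlap, 2 with RLE factors, 2 with only the 4 libraries of the comparison, and between 0 and 2 when libraries were left out. The effects differed for 2 helicases, with 1 in DESeq2 and between 1 and 3 when libraries were left out. When libraries were left out, the median log2 fold change with 12-HETE ranged from 0.045 (without vehicle replicate 4) to 0.48 (without vehicle replicate 5), and it was 0.027 with no minimum count. That with ADAR1 p150 ranged from -0.11 without ADAR1 p150 replicate 1 to 0.15. Deviations of same-numbered libraries from their group means had correlations of -0.0798 and -0.114 across 6901 genes. With 2 libraries per group and low counts, these values cannot show whether same-numbered libraries were paired. With the replicate block, 4 helicases changed with 12-HETE. With a crossed block in the ADAR1 p150 experiment, chosen after seeing the data, 1 helicase changed there and 3 differed in effect.

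Dhx32 and Ddx3x passed with 12-HETE in all 15 alternative fits, Ddx42 in 13, Dhx9 in 11 of 14, Ddx1 in 8 of 15 and Ddx19b in 7 of 14. In all, 10 uncalled values changed sign in some alternative fit, 7 of them by more than 1 standard error, each when a library was left out. The other 3, by less, were Ddx5, Dhx32 and Ddx39a with ADAR1 p150. With 12-HETE the 7 were Ddx17 (range -0.31 to 0.47, lowest without vehicle replicate 4), and Ddx39a (-0.044 to 0.13) and Ddx49 (-0.11 to 0.059), both lowest without vehicle replicate 5. With ADAR1 p150 they were Ddx21 (-1.68 to 0.0036, highest without ADAR1 p150 replicate 2), Ddx23 (-0.36 to 0.46, lowest without ADAR1 p150 replicate 1), and Ddx27 (-0.42 to 0.26) and Irf7 (-0.96 to 0.027), both highest without vector replicate 1. The causes were not tested. With 2 libraries per group and low counts for most helicases, smaller changes were not measured precisely.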
